A study of Mus musculus with 76 samples.

Results

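The genes described here are the Hox genes of the Hoxa, Hoxb, Hoxc and Hoxd clusters, taken as every gene whose symbol in the array's probe annotation is a cluster letter followed by a paralog number. They were 38 of 20863 named genes, and each was read from the probe with the highest mean over all 76 arrays. Of these, 37 had a value on every array and were tested together with 20710 genes. Hoxb9 lacked a value on 1 array and is described from the other 74 replicates.

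Hox genes encode homeodomain transcription factors that give body segments and organs their positional identity. They lie in 4 clusters, and the order of the genes along a cluster follows the place of their expression along the body axis, with low paralog numbers anterior and high numbers posterior. Their proteins bind DNA together with TALE homeodomain cofactors of the Pbx, Meis and Pknox families. Retinoic acid induces the anterior genes, and Polycomb and trithorax complexes keep them silent or active. In the lung, genes of the anterior and middle Hoxa and Hoxb clusters are known from the mesenchyme, and Hoxa5 is required there for normal airway and alveolar formation.

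The data were single-colour arrays of RNA from alveolar septa, the gas-exchanging walls, and from vessels, both microdissected from the lungs of 40 mice. All mice were of the line C57BL/6-Noxo1(tm1881_17.2Arte), either wild-type or Noxo1 knockout, the latter without the organiser protein of the NADPH oxidase NOX1. They breathed smoke of Kentucky 3R4F cigarettes from week 12, at 140 mg of particles per m3 for 6 h a day on 5 days a week, or were controls, and the sample titles give 3 or 8 months. The 16 groups of genotype, exposure, time and tissue held 4 or 5 replicates each, 39 of septa and 36 of vessels, and 35 mice gave both tissues. A pair of arrays of 1 wild-type control mouse at 3 months, both of vessels, were averaged to 1 replicate. The labels' protocols state an exposure of 8 months for every sample, so that 3 months stands in the titles without a protocol of its own. The labels give no sex and do not say whether wild-type and knockout mice were littermates. The study's title names emphysema and pulmonary hypertension from cigarette smoke as the setting in which Noxo1 was removed.

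The arrays carry no counts, so their number limits the precision of every value below. Septa arrays resembled each other more closely than vessel arrays did, with median correlations per array from 0.897 to 0.935 against 0.8 to 0.882. Smooth muscle markers were higher in vessels for 13 of 13 genes, and their mean signal did not overlap between tissues, at 5.79 to 7.2 in septa and 9.41 to 11.25 in vessels. All 10 markers of type 1 pneumocytes and all 10 of type 2 pneumocytes were lower in vessels, as were 10 of 11 of capillary endothelium, while all 10 markers of ciliated cells were higher. Over all genes 12.7% were called higher in vessels and 16.4% lower. Of 10 adventitial fibroblast markers 7 were higher and 1 lower, and of 10 alveolar fibroblast markers 1 and 7. Heart muscle markers were higher for 9 of 10 genes and adipocyte markers for 6 of 10. Arterial and venous endothelium was mixed, with 5 of 12 higher and 4 lower, and of 10 chondrocyte markers 0 were called. The mean signal of the ciliated markers ran from 2.92 to 5.36 in septa and from 3.96 to 9.21 in vessels. The knockout septa had a Noxo1 log2 signal of 2.42 ± 0.67 (SD, n = 20), against 3.72 ± 1.27 (n = 19) for the wild type. In vessels it was 3.2 ± 1.25 (n = 18) against 4.05 ± 1.54 (n = 18). Whether its probe lies in the deleted part is not known here. Genes of the sex chromosomes gave a female pattern on 4 of 19 control and 10 of 20 smoke-exposed septa replicates, and on 3 of 18 and 9 of 18 vessel replicates. In 2 of the 35 mice with both tissues the septa and the vessels differed in this pattern, and results are given without these mice where they change.

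Hoxa3 and Hoxa5 are genes of the Hoxa cluster on chromosome 6 whose signals differed between the tissues in opposite directions, as described below. For that reason the 250 bases before their start sites are shown. The Hoxa3 gene model overlaps those of Hoxa4, Hoxa5 and Hoxa6, and its start site lies upstream of that of Hoxa5. Whether the Hoxa3 probe reads transcripts from this start was not tested. Both sequences are from RefSeq on GRCm38.p6, on the minus strand, 5′ to 3′. Capitals mark a match, on the opposite strand, to TGACAG, the core recognised by Meis and Pknox proteins.
Hoxa3, chr6:52213068-52213317: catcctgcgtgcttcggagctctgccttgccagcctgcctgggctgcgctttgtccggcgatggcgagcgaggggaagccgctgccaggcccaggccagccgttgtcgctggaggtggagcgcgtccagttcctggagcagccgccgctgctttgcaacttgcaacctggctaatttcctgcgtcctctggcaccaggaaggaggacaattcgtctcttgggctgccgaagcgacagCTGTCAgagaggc
Hoxa5, chr6:52204588-52204837: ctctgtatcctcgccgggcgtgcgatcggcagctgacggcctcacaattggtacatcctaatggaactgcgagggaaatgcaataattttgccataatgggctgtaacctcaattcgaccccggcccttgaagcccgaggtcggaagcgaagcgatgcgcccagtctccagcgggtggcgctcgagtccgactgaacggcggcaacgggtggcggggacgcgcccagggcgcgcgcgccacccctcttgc

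The G and C content of these windows was 64.8% for Hoxa3 and 63.6% for Hoxa5, against a median of 52% over 27025 promoters of the same length. The observed over expected CpG ratio was 0.687 for Hoxa3 and 1.11 for Hoxa5, against a median of 0.378 over all promoters. RefSeq windows were at hand for 22 of the 38 Hox genes, with a median of 56.8% G and C and a median CpG ratio of 0.603. On either strand, TGACAG occurred in 2 of the 22 windows (9.09%; Hoxa2 and Hoxa3) and in 16% of all promoters. The Pbx and Hox composite TGATNNAT occurred in 3 of 22 (13.6%, 7.91% of all), the nuclear receptor half-site AGGTCA in 6 (27.3%, 13.8% of all) and the Cdx core TTTATG in 5 (22.7%, 11.1% of all). The Hoxa5 window held none of the 4 motifs.

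Most Hox genes with a signal above background in adult lung were anterior and middle genes of the Hoxa and Hoxb clusters. To say which Hox genes had a signal above background, the mean of each was set against 1322 olfactory and vomeronasal receptor genes, which encode receptors of the nose, and called above background past the 95th percentile of their means, a log2 signal of 3.21 in septa and 3.3 in vessels. By this measure 13 of 38 Hox genes were above background in septa and 14 in vessels, while 60.9% and 61.2% of all genes were. In septa these were 6 of 10 Hoxa, 6 of 10 Hoxb, 1 of 9 Hoxc and 0 of 9 Hoxd genes, and in vessels Hoxb7 was added. Of the paralogs 1 to 7 of Hoxa and Hoxb, 10 of 13 were above background in septa and 11 of 13 in vessels. Of the paralogs 8 to 13 in the Hoxc and Hoxd clusters it was 0 of 12 in both tissues. Paralogs 1 to 7 of Hoxc and Hoxd had 1 of 6 in both tissues, and paralogs 8 to 13 of Hoxa and Hoxb 2 of 7.

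The 13 genes above background in both tissues were Hoxa2, Hoxa3, Hoxa4, Hoxa5, Hoxa7, Hoxa13, Hoxb2, Hoxb3, Hoxb4, Hoxb5, Hoxb6, Hoxb9 and Hoxc5. Some lay close to the threshold: Hoxb9 had means of 3.26 in septa and 3.64 in vessels, Hoxa13 of 3.3 and 3.57, and Hoxc5 of 3.33 and 3.44. Just below it were Hoxd12 at 2.91 and 2.99, Hoxa6 at 2.84 and 2.71, and Hoxb7 in septa at 2.74. Hoxa13, a gene of limb, gut and urogenital development, therefore stood near the threshold and not among the clear signals.

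**Figure D1:**
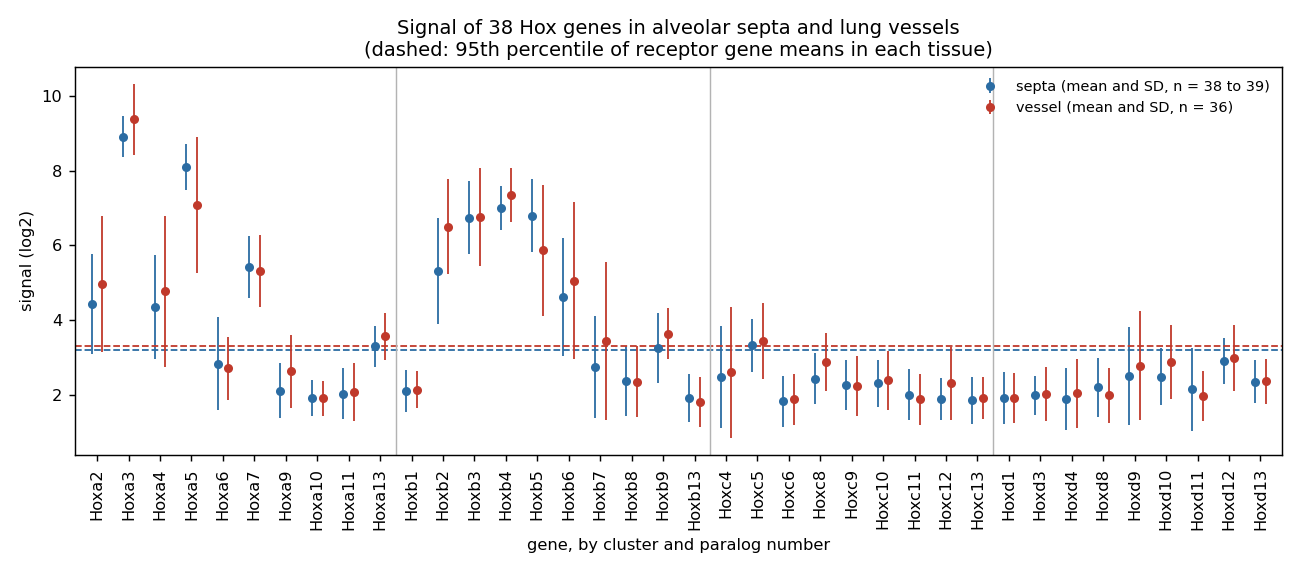
Log2 signal of the 38 Hox genes in septa (blue) and vessels (red), as mean and SD over replicates, ordered by cluster and paralog number. Dashed lines are the 95th percentiles of receptor gene means, 3.21 in septa and 3.3 in vessels. Most genes above the lines lie between Hoxa2 and Hoxa7 and between Hoxb2 and Hoxb6. Apart from these lines, signals of different probes are not compared.

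How many single replicates carried a signal differed among these genes. The 95th percentile of single receptor signals was 3.79 in septa and 4.12 in vessels. Hoxa3 and Hoxb4 were above it in all 39 septa and all 36 vessel replicates. Hoxb3 passed it in 39 septa and 34 vessel replicates, Hoxa7 in 38 and 32, Hoxa5 in 39 and 32, and Hoxb5 in 39 and 29. Hoxb2 went the other way, with 33 of 39 in septa and 35 of 36 in vessels. Hoxa2 (25 and 25), Hoxa4 (24 and 23) and Hoxb6 (31 and 25) were above it in most replicates and at background in the rest. Hoxb7 passed it in 10 septa and 11 vessel replicates.

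**Figure D2:**
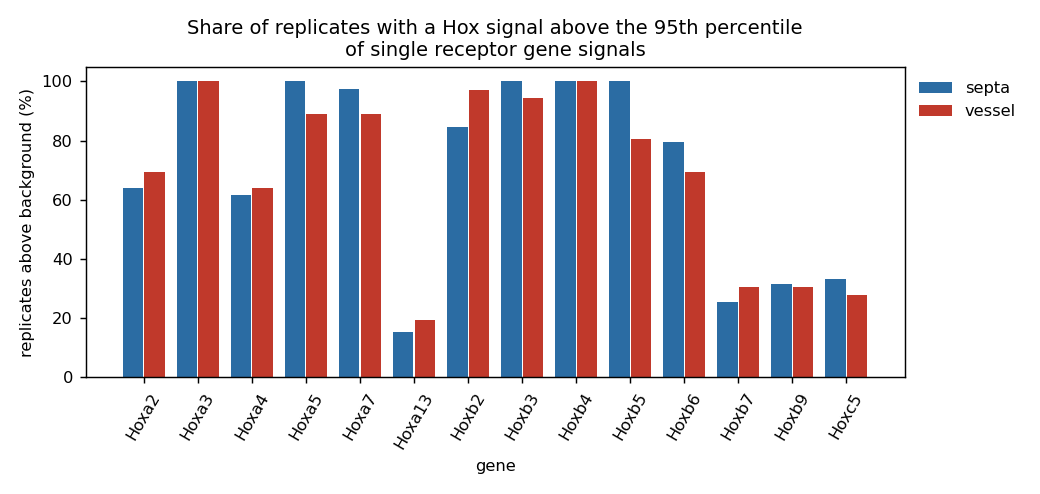
Percent of replicates (39 of septa, 38 for Hoxb9, and 36 of vessels) in which a Hox gene passed the 95th percentile of single receptor gene signals, 3.79 in septa and 4.12 in vessels. Hoxa3 and Hoxb4 stand at 100% in both tissues, and Hoxa5 and Hoxb5 at 100% in septa and lower in vessels.

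Between the tissues, Hoxb2 and Hoxa3 were higher in vessels, and Hoxa5 and Hoxb5 were higher in septa. Hoxb2, which acts in hindbrain and facial nerve patterning, rose by 1.2 ± 0.29 (log2 difference of vessel minus septa ± SE, adjusted p = 0.00072). Hoxa5 fell by 0.95 ± 0.25 (adjusted p = 0.00229) and Hoxb5, its paralog, by 0.92 ± 0.32 (adjusted p = 0.0204). Hoxa3, a gene of thymus, parathyroid and carotid body development, rose by 0.48 ± 0.17 (adjusted p = 0.0248). These are limma's tests over the mean of the 8 conditions with the mouse as a random block, adjusted by Benjamini-Hochberg over all 20710 genes.

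With Hoxa9, 5 of 37 Hox genes (13.5%) passed, 3 higher and 2 lower in vessels. Over all genes 29% passed, 12.7% higher and 16.4% lower. Of the 12 tested Hox genes above background in both tissues 4 passed (33.3%), and of all genes above background in either tissue 39.9% did. These sets differ, as the second also holds genes above background in a single tissue, so the shares are not like for like. Hoxb7, above background in vessels alone, did not pass. The median difference was 0.06 over the 37 Hox genes and 0.02 over all genes. In whole-tissue RNA, fewer cells of a type and less RNA per cell cannot be told apart, and the cell markers above moved with tissue as well. Their part in the Hox differences was not tested.

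**Figure D3:**
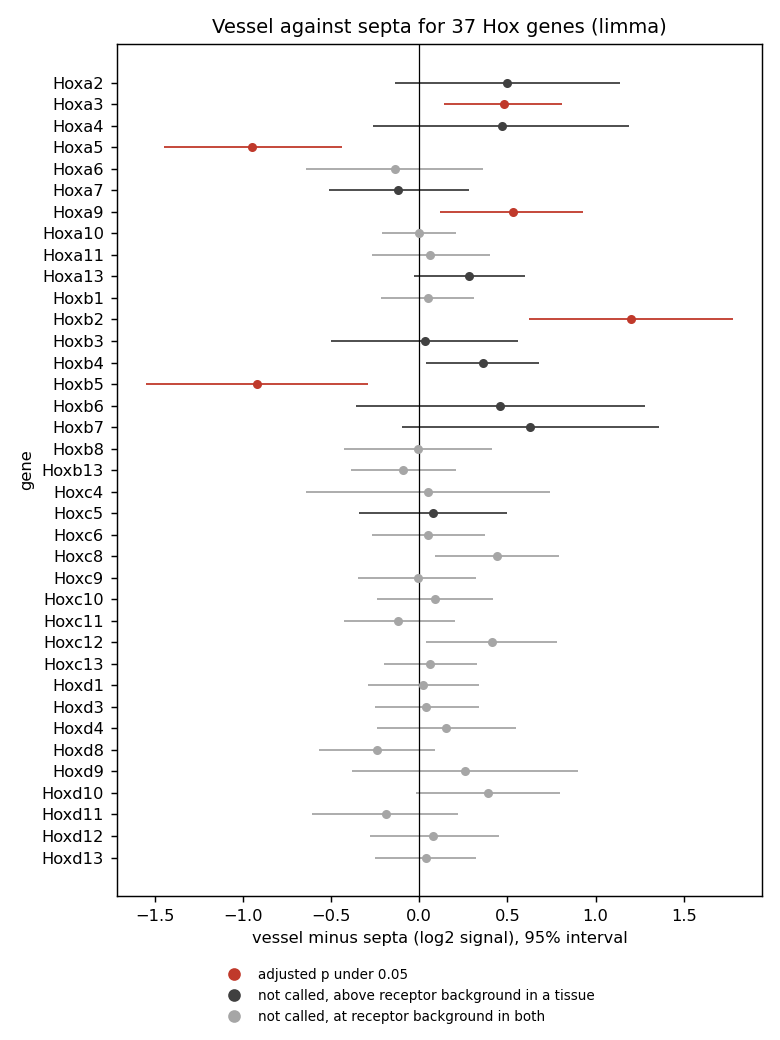
Vessel minus septa difference in log2 signal for the 37 tested Hox genes, with 95% intervals from limma over 39 septa and 36 vessel replicates. Red points passed an adjusted p of 0.05, dark points are uncalled genes above receptor background in at least 1 tissue, and light points are at background in both. Hoxb2 lies furthest right at 1.2 and Hoxa5 furthest left at -0.95.

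For Hoxb2, the signal was lowest at 2.6, median 5.24 and highest at 8.22 in septa, and 2.72, 6.57 and 9.05 in vessels. The tissues overlapped over most of their range. In 27 of the 35 mice with both tissues the vessel value was the higher, and in each of the 8 conditions the difference was above 0, from 0.49 to 2.39, although none of these passed on its own. The call was lost in knockout mice alone, at 0.74 (adjusted p = 0.244), in control mice alone, at 1.08 (adjusted p = 0.0719), and at 8 months alone, at 0.85 (adjusted p = 0.172). It held in wild-type mice alone (1.67, adjusted p = 0.00177), in smoke-exposed mice alone (1.33, adjusted p = 0.0128) and at 3 months alone (1.56, adjusted p = 0.00409).

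For Hoxa5, septa lay between 6.98 and 9.13 with a median of 8.03, while vessels ran from 1.3 to 9.28 with a median of 7.54. The upper ends were close, and some vessel replicates reached far below every septa value. The vessel value was the lower in 25 of 35 mice. Without the wild-type smoke-exposed mice at 3 months the difference was -0.57 (adjusted p = 0.0668), and at 8 months alone it was -0.38 (adjusted p = 0.369). In wild-type mice alone it was -0.9 (limma, adjusted p = 0.072), and none of these passed.

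Hoxb5 was at 4.15 to 8.36 with a median of 6.8 in septa and at 2.28 to 8.89 with a median of 6.28 in vessels. As with Hoxa5, some vessel replicates lay below every septa value, and 25 of 35 mice had the lower value in vessels. In knockout mice alone the difference was -1.55 (adjusted p = 0.00882) and in wild-type mice alone -0.29 (adjusted p = 0.723). The difference between genotypes itself did not pass, at -1.26 ± 0.63 (adjusted p = 0.998). Without the knockout smoke-exposed mice at 3 months the call was lost, at -0.77 (adjusted p = 0.0874), as it was without those at 8 months, at -0.84 (adjusted p = 0.0629). It was lost too in control mice alone, at -0.62 (limma, adjusted p = 0.34), and in smoke-exposed mice alone, at -1.23 (adjusted p = 0.0588). At 3 months alone the difference was -1.11 (adjusted p = 0.0952) and at 8 months alone -0.74 (adjusted p = 0.237), and neither passed.

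Hoxa3 lay between 7.86 and 10.35 in septa, with a median of 8.84, and between 7.06 and 10.79 in vessels, with a median of 9.56. Vessels held both the lowest and the highest values, and 23 of 35 mice had the higher value in vessels. At 3 months alone the difference was 0.26 (adjusted p = 0.531) and at 8 months alone 0.69 (adjusted p = 0.0151). It did not pass in control mice alone, at 0.52 (limma, adjusted p = 0.107), or smoke-exposed mice alone, at 0.43 (adjusted p = 0.242). Nor did it pass in wild-type mice alone, at 0.41 (adjusted p = 0.232), or knockout mice alone, at 0.54 (adjusted p = 0.125). The call was also lost without the 2 mice whose tissues differed in sex pattern, at 0.43 (adjusted p = 0.0556), without wild-type controls at 8 months, at 0.45 (adjusted p = 0.066), and without knockout smoke-exposed mice at 8 months, at 0.39 (adjusted p = 0.101).

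Hoxa9, a posterior gene known from blood stem cells, passed at 0.53 ± 0.2 (adjusted p = 0.0418) but was at background in both tissues, with means of 2.12 ± 0.73 (SD, n = 39) and 2.63 ± 0.98 (n = 36). With the mouse as a fixed block it was 0.51 (adjusted p = 0.0829), and with the mean of both its probes 0.19 (adjusted p = 0.289). The next lowest p-values were those of Hoxc8 at 0.44 ± 0.18 (adjusted p = 0.0505), also at background with means of 2.44 and 2.89, Hoxc12 at 0.41 ± 0.18 (adjusted p = 0.0863) and Hoxb4 at 0.36 ± 0.16 (adjusted p = 0.0892). Hoxb4, a gene of blood stem cell expansion, was at 7.01 ± 0.59 in septa and 7.34 ± 0.72 in vessels, and 24 of 35 mice had the higher value in vessels.

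**Figure D4:**
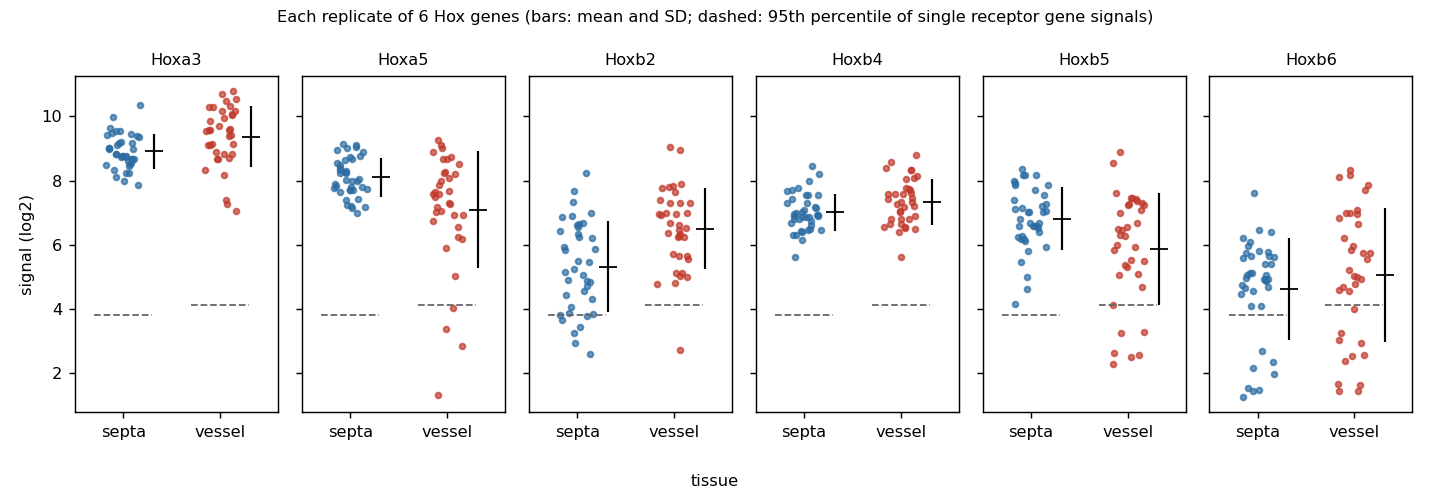
Log2 signal of 6 Hox genes in each septa (blue, n = 39) and vessel (red, n = 36) replicate, with mean and SD in black and the 95th percentile of single receptor signals dashed (3.79 and 4.12). Vessel values of Hoxa5 and Hoxb5 reach below the dashed line while septa values do not, and Hoxb6 spreads above and below the line in both tissues.

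The other genes above background did not pass between the tissues. Hoxb3 differed by 0.03 in log2 signal, with a 95% interval of -0.5 to 0.56, and Hoxa7 by -0.12 with an interval of -0.51 to 0.28, which leaves room for differences of either sign. The intervals of Hoxa2 (-0.14 to 1.14), Hoxa4 (-0.26 to 1.19) and Hoxb6 (-0.36 to 1.28) were wider and lay mostly above 0. Hoxb9, tested with the array of the empty cell left out, was at 0.33 ± 0.2 (limma, adjusted p = 0.229).

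Within single conditions, 2 Hox genes passed between vessels and septa. Hoxa5 was lower in vessels of wild-type smoke-exposed mice at 3 months, by a difference of -3.58 ± 0.69 (limma, adjusted p = 0.000219), where 5.45% of all genes passed. This fit used a single variance per gene over both tissues, while the SD of Hoxa5 within groups was 0.63 in septa and 1.52 in vessels. The vessels of this condition had an SD of 2.56 (n = 5), so the SE is small for their spread. Hoxb7 was higher in vessels of knockout controls at 8 months, by 3.39 ± 0.99 (adjusted p = 0.0225), where 6.69% of all genes passed. In the other 6 conditions no Hox gene passed. Of all genes, 2.98% passed in wild-type controls at 3 months and 3.3% at 8 months, 3.75% in smoke-exposed wild-type mice at 8 months, 4.94% in knockout controls at 3 months, and 4.56% and 2.59% in smoke-exposed knockout mice at 3 and 8 months.

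Hoxb7, a middle Hox gene, was at background in most replicates. In knockout controls at 8 months its septa were at 3.04, 2.03, 3.3, 1.48 and 2.33, and its vessels at 7.65, 2.98, 5.46, 5.4 and 7.64. All but 1 of these vessel values lay above every septa value of the group. Vessels of wild-type controls at 8 months ran from 1.69 to 8.58 with a median of 4.59, and smoke-exposed vessels at 8 months from 1.25 to 3.93 in wild-type and from 1.53 to 6.12 in knockout mice. Over all control vessels the median was 3.79 (1.21 to 8.58, n = 18) and over all smoke-exposed vessels 2.09 (1.25 to 6.12, n = 18). Mean smoke exposure in vessels gave a difference of -1.52 ± 0.6 (adjusted p = 0.977), and the difference between tissues changed with exposure by -2.04 ± 0.73 (adjusted p = 0.641). The call at 8 months was lost without the 2 mice of differing sex pattern (adjusted p = 0.0758) and without any of 4 single replicates of that condition, septa 2 and 4 and vessels 1 and 5, with adjusted p from 0.0522 to 0.0918.

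No Hox gene passed a test of whether the tissue difference itself changed with exposure, genotype or time. Over all genes 0.00966% passed for exposure, 0% for genotype and 0.0386% for time. The lowest p-values were those of Hoxb7 for exposure, given above, of Hoxa4 for genotype, at -2.16 ± 0.73 (limma, adjusted p = 0.935), and of Hoxa5 for time, at 1.13 ± 0.51 (adjusted p = 0.511).

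Smoke exposure lowered no Hox gene past the threshold in either tissue and raised none. Of the 4 smoke comparisons in septa, 1 gave a call for any gene (0.00483% in wild-type mice at 3 months), and the 4 in vessels gave none (0% in each). The largest Hox difference among genes above background was that of Hoxa5 in vessels of wild-type mice at 3 months. The control vessels were at 7.26, 7.59, 8.26 and 8.68. The smoke-exposed vessels were at 4.01, 7.06, 7.03, 2.83 and 1.3. Every smoke-exposed value lay below every control value, which was so for 0.884% of all genes, and 3 of the 5 were at receptor background.

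The means were 7.95 ± 0.64 (SD, n = 4) and 4.44 ± 2.56 (SD, n = 5), a difference of -3.5 ± 0.96 (SE; limma, adjusted p = 0.472). An exact permutation test of this gene alone, chosen for its pattern, gave a two-sided p of 0.0397 over 126 assignments, where 0.00794 is the smallest possible. In 1 fit over both tissues the difference was also -3.5 and the adjusted p 0.0333. That fit shares a single variance per gene between the tissues. The SD of Hoxa5 within groups was 0.63 in septa and 1.52 in vessels, so its SE is small for vessels. The septa of the same 5 smoke-exposed mice were at 7.76, 7.79, 8.5, 8.06 and 8.03, within the range of control septa at 7.19 to 8.33 apart from the value of 8.5. The vessel replicate with the Hoxa5 value of 1.3 also had the lowest Hoxa4 (1.9) and Hoxb5 (2.56) values of its group. It had the group's highest values of Hoxa2 (5.59), Hoxb3 (7.43), Hoxb6 (7.87), Hoxb9 (4.32) and Hoxc5 (5.12). In knockout mice at 3 months control vessels lay at 5.88 to 7.31 and smoke-exposed vessels at 3.36 to 9.28, and at 8 months no vessel group went below 5.03.

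Cell markers were read in the same vessels. The mean smooth muscle marker signal was 10.6 to 11.08 in wild-type control vessels at 3 months and 9.41 to 10.96 in smoke-exposed ones. Alveolar fibroblast markers ran from 7.73 to 8.57 and from 7.6 to 9.1, adventitial fibroblast markers from 9.07 to 9.63 and from 9.02 to 9.41, and macrophage and neutrophil markers from 6.1 to 7.48 and from 7.15 to 9.51. These ranges, and those of the other 14 marker lists, overlapped between control and smoke-exposed vessels. Both groups held values at the extremes of all vessel replicates. Smoke-exposed ones included the highest mesothelium signal (7.58, controls 3.19 to 3.65) and the lowest of smooth muscle (9.41) and of arterial and venous endothelium (8.11). Control ones included the highest adipocyte signal (8.46) and the lowest ciliated signal (3.96). The part of cell markers in the Hoxa5 values was not tested. With the sex pattern as a covariate the Hoxa5 difference was -3.43 (limma, adjusted p = 0.626).

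**Figure D5:**
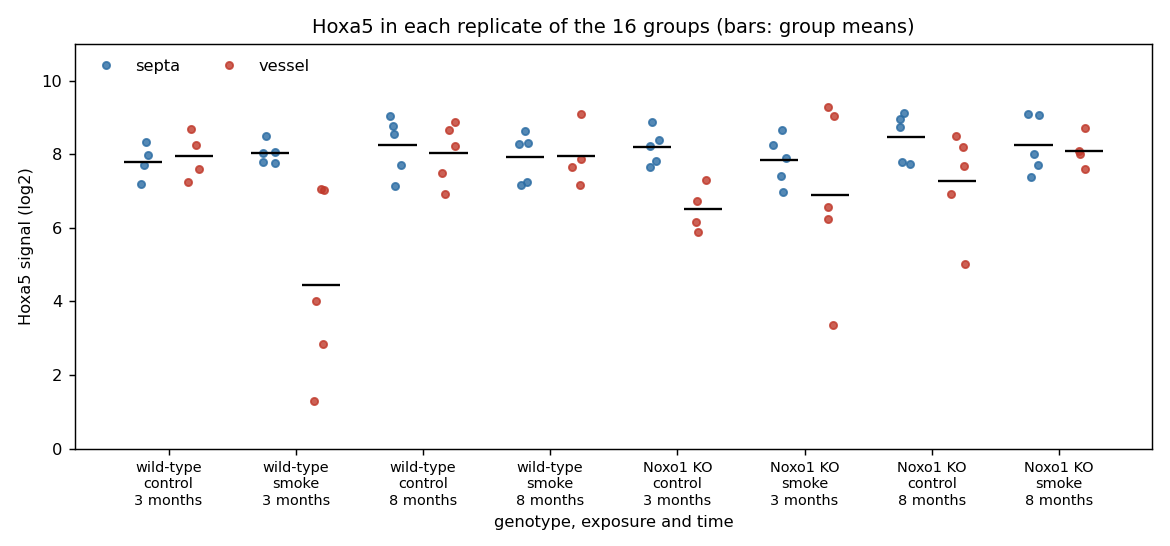
Log2 signal of Hoxa5 in each replicate of the 16 groups, septa in blue and vessels in red, with group means as black bars. Septa stay between 6.98 and 9.13, and the vessels of wild-type smoke-exposed mice at 3 months include values of 4.01, 2.83 and 1.3.

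Averaged over genotype and time, smoke exposure gave no Hox call. Among the 12 tested genes above background in both tissues, differences ran from -0.49 to 0.44 in septa and -0.64 to 0.69 in vessels. None passed, and 0% of all genes did in both tissues. Hoxb7, above background in vessels alone, differed more there, as given above. For Hoxa3 the septa interval ran from -0.54 to 0.16 and the vessel interval from -0.87 to 0.31, and for Hoxb4 from -0.58 to 0.25 and from -0.72 to 0.36. For Hoxb6 the vessel interval was -1.47 to 1.28, which leaves room for differences above 1 log2 unit in either direction. In septa of knockout mice at 8 months Hoxa2, a gene of hindbrain and second arch patterning, had the lowest p of the Hox genes, at -2.22 ± 0.76 (limma, adjusted p = 0.587).

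Between genotypes, no Hox gene and no gene of all passed in either tissue (0% of all genes in both). Hoxa4 had the lowest p in vessels, with values of 1.37 to 7.37 and a median of 3.63 in knockout mice, and 1.9 to 8.61 with a median of 6 in wild-type mice. The difference was -1.59 ± 0.6 (limma, adjusted p = 0.979). Hoxb2 (-1 ± 0.4) and Hoxb5 (-1.19 ± 0.56) followed in vessels, both with an adjusted p of 0.979. In septa, Hoxa4 had medians of 4.64 in knockout and 4.38 in wild-type mice. The interaction of genotype and smoke gave no Hox call (0% of all genes in both tissues), with Hoxa5 in vessels at 2.4 ± 0.96 (adjusted p = 0.998).

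Between 8 and 3 months no Hox gene passed either, although 3.5% of all genes did in septa and 1.27% in vessels. Hoxa7 in vessels came closest. It ran from 4.42 to 7.58 with a median of 5.8 at 3 months (n = 18) and from 3.36 to 6.22 with a median of 4.91 at 8 months (n = 18), and the times overlapped. The difference was -1.17 ± 0.31 (limma, adjusted p = 0.0504), and it passed in 4 of 10 other settings. It also passed without any 1 of 8 vessel replicates, with adjusted p from 0.0296 to 0.0488: knockout controls 1 and 2 at 3 months and 1 at 8 months, smoke-exposed knockout 2 at 3 months and 3 at 8 months, wild-type controls 3 at 3 months and 2 at 8 months, and smoke-exposed wild-type 2 at 3 months. In septa Hoxa7 was at medians of 5.5 and 5.26, with a difference of -0.38 and an interval of -0.95 to 0.19. Hoxa5 in vessels moved the other way, from a median of 6.88 at 3 months to 7.93 at 8 months, with a difference of 1.39 ± 0.48 (adjusted p = 0.153). In septa Hoxb2 had the lowest p, at 0.99 ± 0.41 (adjusted p = 0.208).

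Replicates of 1 group varied more in vessels than in septa for most Hox genes above background, as did genes in general. The residual SD of Hoxa5 was 0.63 in septa and 1.52 in vessels, that of Hoxb5 1.04 and 1.77, and that of Hoxa3 0.55 and 0.93. For all genes the median residual SD was 0.74 and 0.98, and for genes above background 0.8 and 1.16. Hoxb2 (1.38 and 1.21) and Hoxa7 (0.83 and 0.77) were exceptions. Hoxb6, at 1.55 and 2.16, and Hoxa4, at 1.37 and 1.86, spread widely in both tissues.

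Correlations of Hox gene pairs across replicates had medians near 0, while single pairs varied in sign and size. After the group means were taken off, pairs from the same cluster correlated at a median of 0.05 in septa and -0.06 in vessels (25 pairs over 39 and 36 replicates). Their ranges were -0.29 to 0.31 in septa and -0.33 to 0.36 in vessels. Paralogs of the same number in different clusters correlated at medians of 0 and 0.04 (6 pairs, -0.18 to 0.18 and -0.05 to 0.35). The other 35 pairs had medians of 0 in both tissues, from -0.41 to 0.44 in septa and from -0.5 to 0.28 in vessels. These are correlations of probes on shared arrays, given as a description. The 2 probes of Hoxb3, with means of 6.77 and 4.07, correlated at -0.06 over 76 arrays. For Hoxa13 (second probe at 2.06) and Hoxa9 (2.37 and 2.31) at least 1 probe was at background, so their correlations are not read. In RefSeq the gene model of Hoxa3 overlaps those of Hoxa4, Hoxa5 and Hoxa6, and that of Hoxb3 overlaps Hoxb4. Which transcripts each probe reads was not tested.

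The lists of partners, regulators and relatives of Hox genes are given beside the 29% of all genes called between the tissues (12.7% higher and 16.4% lower in vessels). Of the TALE cofactors, 0 of 8 measured genes rose and 4 fell in vessels (50% called, median -0.42, against 0.02 over all genes). These were Pknox1, at 8.73 in septa and 7.22 in vessels (-1.51 ± 0.31, limma, adjusted p = 7.01e-05), Pbx3 (-1.15 ± 0.33, adjusted p = 0.00413), Pbx2 (-1.07 ± 0.26, adjusted p = 0.000826) and Meis1 (-0.4 ± 0.14, adjusted p = 0.0261). Pknox2 was at -0.43 and Meis2 at 0.32, and neither passed.

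In the retinoid pathway 2 of 17 measured genes rose and 5 fell (41.2% called against 29% of all genes, median -0.05). Aldh1a2, the main retinoic acid synthesising enzyme of embryonic mesenchyme, rose from 2.48 in septa to 6.28 in vessels (3.83 ± 0.27, limma, adjusted p = 7.15e-20), and Aldh1a3 rose by 1.47 ± 0.28. Both were below the receptor threshold of 3.21 in septa (Aldh1a3 at 2.78), so these differences are taken against a background signal. The receptors Rxra (-1.11 ± 0.32) and Rara (-0.87 ± 0.2) and the enzyme Aldh1a1 (-0.9 ± 0.14) fell, Rxra to a background signal of 2.86 in vessels.

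Of 30 measured Polycomb and trithorax regulators 1 rose and 8 fell in vessels (median -0.25), and this share of 30% called is near the 29% of all genes. Rbbp7, a histone-binding subunit, rose by 0.52 ± 0.09, and Rnf2 (-1.14 ± 0.33) and Phc1 (-0.85 ± 0.33), both of Polycomb repressive complex 1, fell, as did the histone demethylase Kdm6b (-0.68 ± 0.21). In septa the Polycomb genes Bmi1 (0.66 ± 0.17, limma, adjusted p = 0.0205) and Eed (0.78 ± 0.19, adjusted p = 0.0139) rose from 3 to 8 months. They were 2 of 30, with 0 lower, where 3.5% of all genes passed. Of the 23 lung and mesenchyme transcription factors described below, 2 rose (Foxa1 and Tbx4) and 1 fell (Prrx1) in the same comparison.

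Among 11 measured neighbours and noncoding RNAs of the clusters 1 rose and 2 fell (27.3% called, also near 29%). Evx2, next to the Hoxd cluster, passed but was at background in both tissues, with means of 2.04 and 2.73. Lnpk, also beside Hoxd, and Skap2, beside Hoxa, fell by 0.96 and 0.77. Of 13 other homeobox genes related to Hox genes 3 were called (23.1% against 29%): En2 (0.85 ± 0.19) and Gbx1 (0.76 ± 0.21, at a background signal of 2.99 in septa) rose and Meox1 (-2.12 ± 0.36) fell. Of 23 measured transcription factors of lung and mesenchyme 8 rose and 12 fell (87% called against 29% of all genes). Gata6 (1.93 ± 0.23), Prrx1 (1.87 ± 0.32, at a background signal of 2.58 in septa) and the hedgehog effector Gli1 (1.58 ± 0.24) rose, and Foxf1 (-2.24 ± 0.27), Foxf2 (-2.03 ± 0.37) and Tbx3 (-1.63 ± 0.12) fell.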

How the data were processed

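RNA was isolated with a QIAgen RNeasy Micro kit, amplified with Ovation PicoSL WTA V2 and labelled with Cy5, per the labels' protocols. The submitters' processing notes name limma. How background was corrected was not stated there. The deposited values are log2 signals already normalized between arrays by the authors, as read from the values. Of 62976 features 31465 carried 1 gene symbol, and genes without an empty cell (20710) were tested. The Hox genes, gene lists and tests were chosen with earlier results of these data known. Genes were named by rule: Hox genes called between tissues, above background, or among the 3 lowest p-values of a comparison, and up to 3 called genes per direction of each list. Fits used limma 3.58.1 in R 4.3.3 with group means, eBayes with a trend and Benjamini-Hochberg adjustment at 0.05. Vessels and septa were paired by mouse number (35 mice, mean residual correlation 0.03, consensus correlation 0.0283). Fits within a tissue used that tissue alone. The script was tested on simulated data. Apart from the receptor background, signals of different probes were not compared, and how well each probe binds was not tested. Alternatives were normalization, probe choice, filters, blocks, subsets and left-out replicates, and 3 kinds were chosen after seeing the data: leaving out a condition, keeping features with an empty cell, and sex pattern as a covariate. Python with matplotlib 3.10.9 drew the figures.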

Additional observations from a re-analysis of the deposited data

Results flagged for a closer look

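Single replicates stood apart from the rest of their group in 10 of 112 checks, each of 1 of 7 Hox genes in 1 of the 16 groups. For normally distributed values about 1 in 20 checks would do so. The genes were partly taken by their p-values in these data and share arrays, so the count is a description and not a test. In wild-type controls at 8 months, 1 septa replicate had a Hoxb5 signal of 4.98 against 6.58 for the nearest other. In wild-type smoke-exposed mice at 3 months, 1 vessel replicate had a Hoxb5 signal of 2.56 against 5.98. Hoxb4 was at 8.45 in 1 septa replicate of knockout smoke-exposed mice at 8 months (nearest 6.92) and at 6.56 in 1 vessel replicate of wild-type smoke-exposed mice at 8 months (nearest 7.7).

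Hoxb2 stood apart in 4 groups. It was at 8.95 in 1 vessel replicate of knockout controls at 3 months (nearest 5.1), at 2.6 in 1 septa replicate of knockout controls at 8 months (nearest 5.82), at 5.65 in 1 vessel replicate of wild-type controls at 8 months (nearest 6.93) and at 2.92 in 1 septa replicate of wild-type smoke-exposed mice at 3 months (nearest 4.82). Hoxc8, at background in both tissues, was at 3.7 in 1 septa replicate of knockout smoke-exposed mice at 8 months (nearest 2.21) and at 2.08 in 1 vessel replicate of wild-type smoke-exposed mice at 8 months (nearest 2.94).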

How the results depend on the processing

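Direction was followed for the 5 tissue calls and for the calls of Hoxa5 and Hoxb7 within conditions. It was also followed for Hoxa5 with smoke in wild-type vessels at 3 months and for Hoxa7 over time in vessels. None of these reversed in any alternative run, and the direction of other differences was not followed. The number of Hox genes called between tissues, 5, was 2 in control, smoke-exposed, wild-type or knockout mice alone and at 8 months alone, 3 at 3 months alone, 3 without knockout smoke-exposed mice at 3 months and 2 without those at 8 months, all with fewer samples, and 4 to 6 with each replicate left out. Without a block for mouse it was 5, and with mouse as a fixed block 4. Between 8 and 3 months the count of 0 became 1 with quantile normalization again, without genes under the 25th percentile and with the mean of all probes, and 2 in 1 fit over both tissues (0 to 1 with each replicate left out). The count of 0 for smoke became 1 in 1 fit over both tissues, which is Hoxa5 in wild-type vessels at 3 months. That fit shares a single variance per gene between the tissues, and Hoxa5 varied less in septa than in vessels. The 2 calls within conditions were 1 to 3 with each replicate left out. Among the 37 tested Hox genes, 12 in septa and 13 in vessels were above background. With the 99th percentile 7 were in septa, and asking for single signals above the percentile in 3 of 4 replicates left 7 in vessels. Replicate numbers of the labels did not pair samples within a tissue (correlation of same-numbered samples 0.012 in septa and 0.025 in vessels), and with that replicate block the counts for smoke, genotype and time remained 0. With each replicate left out, the tissue difference was 1.08 to 1.28 for Hoxb2, -1.03 to -0.84 for Hoxa5, -1.06 to -0.78 for Hoxb5 and 0.43 to 0.55 for Hoxa3, all still called, while Hoxa9 lost its call in 25 of 75 such fits.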
